A study of Mus musculus with 10 samples.

Results

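The 41 genes described here encode the machinery that licenses replication origins and copies DNA, from the origin recognition complex to the ligase that seals Okazaki fragments. They were taken by name from a count table of 33006 genes. The list rests on the genes' roles and uses no measured value as a criterion, although it was drawn up with earlier results of these data known. All 41 were found in the table and all 41 passed the filter on low counts. RNA came from E14 mouse embryonic stem cells whose NPM1, a histone chaperone of the nucleolus, carries an auxin-inducible degron and can so be degraded. The cells of both groups carried that allele, were grown with LIF, the MEK1/2 inhibitor PD0325901 (1 µM) and the GSK3 inhibitor CHIR99021 (3 µM), were synchronised in G1 and were collected 12 h after release. Auxin was added to the cells of 2 libraries and left out for the other 2, called control libraries here. The file headers name a single clone, so the results come from 1 engineered line. No library of cells without the degron was analysed here, so an effect of auxin itself and an effect of NPM1 loss cannot be told apart. Whether the replicates were separate cultures is not stated, so the p-values measure only how far these libraries spread, and that spread may be technical.

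In late mitosis and G1 the origin recognition complex (Orc1 to Orc6), together with Cdc6 and Cdt1, loads the Mcm2 to Mcm7 helicase onto DNA as an inactive double ring, and geminin (Gmnn) blocks Cdt1 once S phase has begun. In S phase Cdc45 and the GINS complex join the ring to form the active helicase, Mcm10 assists firing, and polymerase alpha with primase, polymerase delta and polymerase epsilon synthesise the new strands. The clamp Pcna, opened and closed by the RFC clamp loader, holds the polymerases on DNA, RPA coats single strands, and Fen1 and Lig1 cut flaps and join fragments. Many of these genes are textbook targets of E2F transcription factors. Embryonic stem cells have a short G1 and keep several licensing proteins high through the cycle.

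The promoters of some members illustrate the E2F-type sequence that much of the family shares. RefSeq promoter windows on GRCm38.p6, reaching from 250 bases before the gene start to 50 bases after it, were matched for 33 of the 41 members. They were searched on both strands for TTTGGCGC, TTTCCCGC, TTTGGCGG and TTTCCCGG, which are forms of the E2F motif, and a gene with several windows counted as holding a form if any window did. No 2 forms can lie on the same bases of 1 strand. At least 1 form was present in 17 of 33 members, against 6.95% of 9876 tested genes with a window and 3.79% of all 27025 genes with a window. The form TTTCCCGC was found in 8 members, TTTGGCGC in 6, TTTGGCGG in 4 and TTTCCCGG in none. The 250 bases before the start are printed 5′ to 3′ for 6 members whose match lies wholly before it: the ring subunits Mcm5 and Mcm6, Orc3 and Pola1, which had the largest decreases among members with a match, Rpa1, and Gins3, which was not called. Mcm7 and Cdc6 also held a match wholly before the start, and their windows are not printed. Capitals mark the match, which reads as the reverse complement where it lies on the other strand. The windows are Orc3 at chr4:34614943-34615192, minus strand, Mcm5 at chr8:75109259-75109508, plus strand, Mcm6 at chr1:128359706-128359955, minus strand, Gins3 at chr8:95633309-95633558, plus strand, Pola1 at chrX:93632156-93632405, minus strand and Rpa1 at chr11:75348384-75348633, minus strand.
Orc3: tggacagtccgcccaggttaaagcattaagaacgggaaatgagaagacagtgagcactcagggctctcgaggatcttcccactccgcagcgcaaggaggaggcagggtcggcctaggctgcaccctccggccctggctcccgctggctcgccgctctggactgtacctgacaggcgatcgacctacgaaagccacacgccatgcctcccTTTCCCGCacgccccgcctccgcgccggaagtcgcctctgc
Mcm5: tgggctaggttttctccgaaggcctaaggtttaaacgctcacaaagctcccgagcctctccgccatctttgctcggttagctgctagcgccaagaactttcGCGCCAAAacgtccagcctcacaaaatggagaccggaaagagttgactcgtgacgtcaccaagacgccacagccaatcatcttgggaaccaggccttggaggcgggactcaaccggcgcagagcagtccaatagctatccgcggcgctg
Mcm6: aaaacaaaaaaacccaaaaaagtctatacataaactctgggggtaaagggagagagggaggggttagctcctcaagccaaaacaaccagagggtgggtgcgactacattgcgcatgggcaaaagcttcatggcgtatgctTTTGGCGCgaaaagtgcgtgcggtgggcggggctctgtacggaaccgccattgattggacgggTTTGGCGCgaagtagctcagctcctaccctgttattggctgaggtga
Gins3: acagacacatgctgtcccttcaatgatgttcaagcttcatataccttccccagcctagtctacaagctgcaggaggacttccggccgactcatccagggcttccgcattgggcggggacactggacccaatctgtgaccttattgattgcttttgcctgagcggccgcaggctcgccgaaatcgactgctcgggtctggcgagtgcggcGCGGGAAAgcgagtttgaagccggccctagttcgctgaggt
Pola1: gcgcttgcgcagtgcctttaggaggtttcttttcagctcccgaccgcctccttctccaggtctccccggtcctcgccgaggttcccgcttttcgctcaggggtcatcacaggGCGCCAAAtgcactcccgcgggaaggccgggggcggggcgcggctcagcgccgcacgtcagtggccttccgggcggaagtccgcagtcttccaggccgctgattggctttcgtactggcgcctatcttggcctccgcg
Rpa1: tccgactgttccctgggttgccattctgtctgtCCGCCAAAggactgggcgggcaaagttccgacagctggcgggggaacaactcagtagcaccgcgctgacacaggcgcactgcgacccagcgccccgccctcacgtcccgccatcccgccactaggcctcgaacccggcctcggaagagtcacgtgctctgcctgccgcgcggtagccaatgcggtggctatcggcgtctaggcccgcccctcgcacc
Mcm6 held 2 copies of TTTGGCGC, whose first bases lie 110 and 47 bases before the start. In Pola1 the match began 138 bases before the start, and in Orc3 and Gins3 it began 41 bases before it. The match in Rpa1, TTTGGCGG on the other strand, lay farthest out, with its outer base 217 bases before the start. Mcm3 held 2 forms that lie after the start, within its first 50 bases. These matches describe letters, not binding. The CCAAT box, searched as CCAAT on both strands, was present in 21 of 33 members against 43.3% of tested genes. The sequence TTTGAA, known as the core of the CHR element of mitotic genes, was present in 5 of 33 against 13.8%.

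The libraries held 13353446 to 16046290 counts. The members' share of them was 0.750% and 0.756% in the control libraries and 0.672% and 0.687% in the auxin libraries. The mitochondrial share was 4.06% and 3.52% in controls and 4.96% and 3.46% after auxin. The 10 embryonic stem cell markers summed to between 7230 and 7720 CPM (counts scaled to a common library size), and 5 of them were called lower and 2 higher. The 10 fibroblast markers summed to 14.8 to 20.4 CPM, with Col3a1, Postn, Lum, Dcn, Twist2 and Col6a3 under 1 CPM in every library, and none of the 4 that were tested was called by edgeR or DESeq2 or passed an unadjusted p of 0.05. Summed markers of primitive endoderm were 579 and 544 CPM without auxin and 683 and 631 with it, of which Sparc accounted for most, and 3 of 7 were called higher. Summed markers of trophectoderm were 127 and 139 CPM without auxin and 137 and 148 with it, with Elf5 at 0, and 3 of the 6 tested were called higher and 1 lower. Their part in the results below was not tested. The degron acts on protein, so no transcript in these libraries checks its loss.

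Transcripts of the replication machinery were lower with auxin, by modest amounts. With edgeR's quasi-likelihood test and adjustment over all 13522 genes tested (threshold 0.05), 24 of 41 members fell and 17 were not called. None was called higher, none was higher at an unadjusted p under 0.05, and DESeq2 called none higher and 23 lower. Of all genes tested, 14.5% were called lower and 13.0% higher. The median log2 fold change was −0.22 over the members and 0.01 over all genes tested. The members that fell did so by between 10.2% (Mcm6) and 30.7% (Pola1), and 40 of 41 fold changes were negative, against 48.3% of all genes. Both libraries with auxin were below both without it for 34 members, against 31.8% of all genes, and for no member were both above, against 33.0%. Of the 17 members with an E2F-type match 11 were called lower, as were 9 of the 16 with a window and no match. Over all tested genes with a window the shares called lower were 19.7% with a match and 14.7% without. Bulk RNA cannot tell fewer cells in S phase from less RNA per cell.

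**Figure D1:**
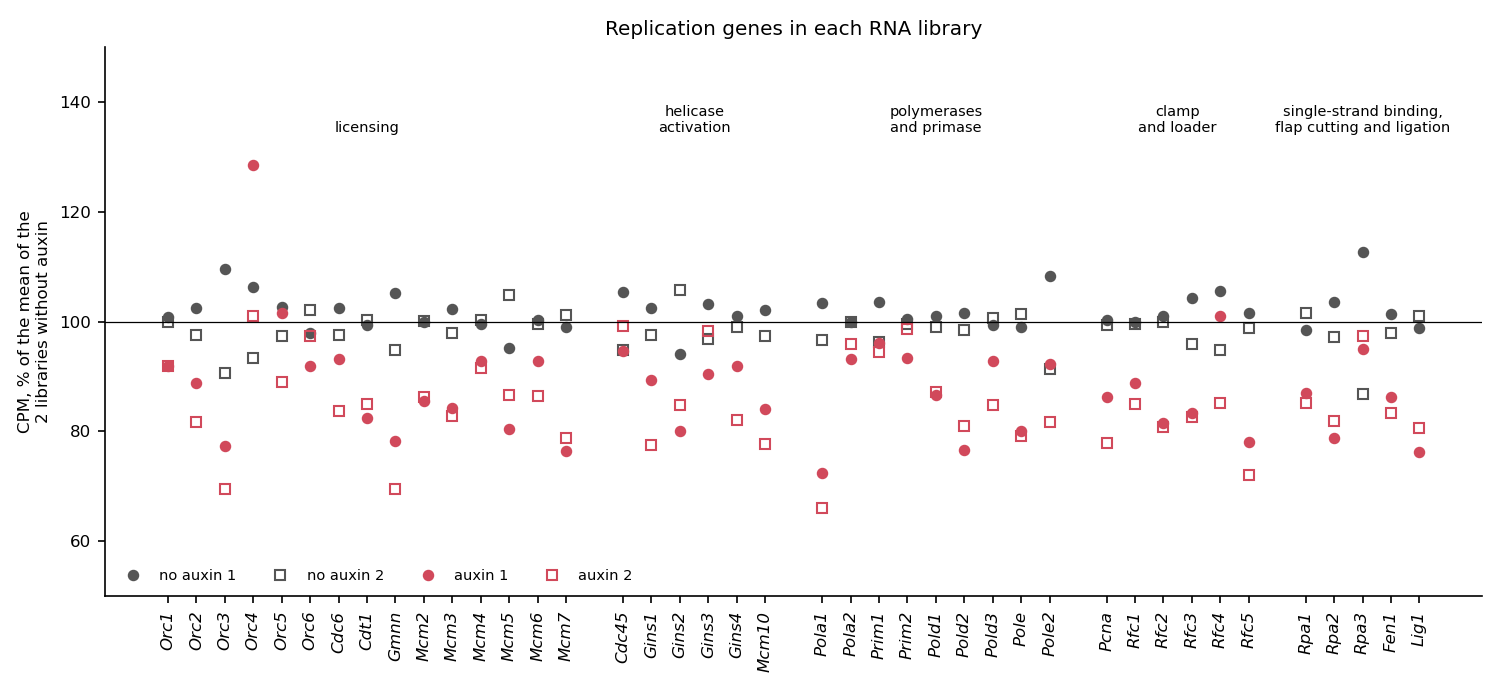
CPM of each replication gene in each of the 4 RNA libraries, as a percentage of the mean of the 2 libraries without auxin (vertical axis), with the 41 genes grouped by role. Circles are replicate 1 and squares replicate 2. Auxin libraries (red) lie below both control libraries (grey) for 34 genes, and Orc4 is the only gene whose mean is higher with auxin.

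These counts are set beside those of genes in the members' range of level, and then by bands of level. The range as a whole is not matched on level, since 2860 tested genes but only 9 members lay at 20 to 50 CPM. Members averaged between 21.5 and 744 CPM over the 4 libraries, and among the 6958 tested genes in that range 22.9% were called lower and 12.3% higher. In the same range 59.6% of genes had a negative fold change and 44.2% had both auxin libraries below both controls. More abundant genes were more often called lower. Of 504 genes over 300 and up to 1000 CPM, 57.7% were called lower with a median of −0.20, and 7 of 8 members in that band fell with a median of −0.24. In that band the members' median was close to that of the other genes. Of 1780 genes over 100 and up to 300 CPM, 37.6% were called lower with a median of −0.11, against 10 of 11 members and a median of −0.26. Between 50 and 100 CPM 19.2% of genes and 5 of 13 members were called lower, and between 20 and 50 CPM 10.0% of genes and 2 of 9 members. Scaling moved the counts as well. With library totals alone the median of all genes was 0.11, the members' median was −0.12, 32 members had a negative value and 14 were called lower, against 7.31% of all genes. The members' median lay 0.23 below that of all genes with TMM factors and with library totals alone. Scaling factors shift all genes by nearly the same amount, so this gap could not have moved and does not test the scaling. Without control replicate 1, 18 members were called lower, against 8.98% of all genes.

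**Figure D2:**
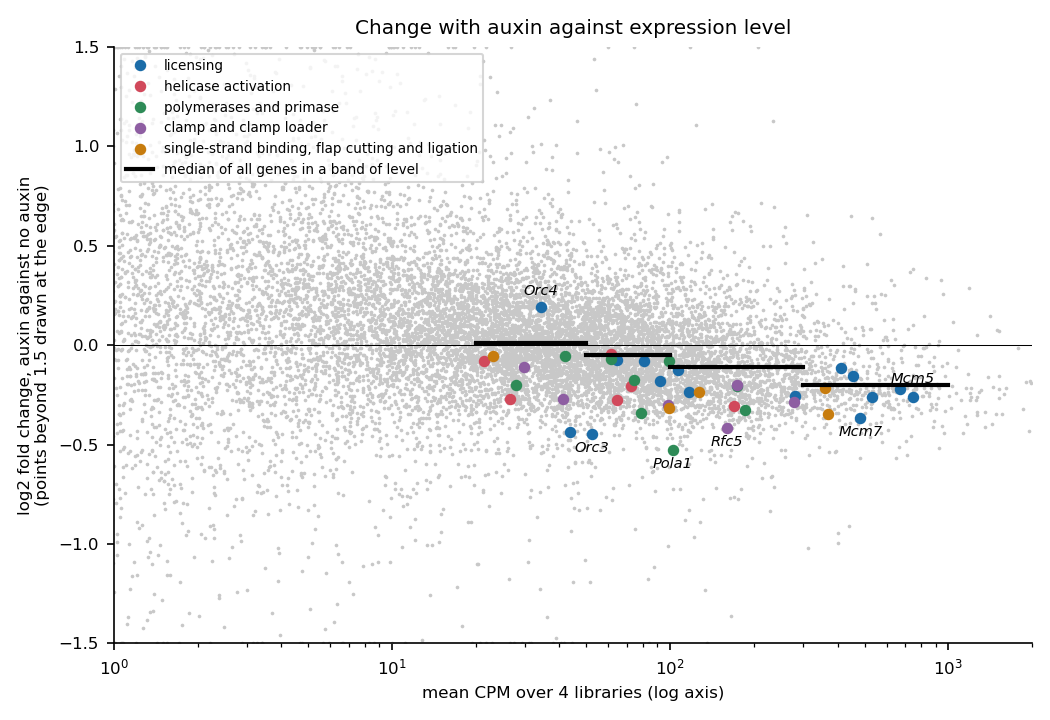
Log2 fold change with auxin (vertical axis) against mean CPM over the 4 libraries (log horizontal axis) for all tested genes (grey) and the replication genes (coloured by role). Black bars are medians of all genes in 4 bands of level, which run from 0.01 at 20 to 50 CPM down to −0.20 at 300 to 1000 CPM, and most replication genes lie below the bar of their band.

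Among the licensing genes, 9 of 15 fell and 6 were not called (median log2 fold change −0.22). The ring subunits Mcm2, Mcm3, Mcm5, Mcm6 and Mcm7 all fell, and Mcm4 did not pass the test. Mcm7 (chromosome 5, 138164583 to 138172422, mm10, minus strand) stood at 539 and 550 CPM without auxin and at 416 and 429 CPM with it. The groups were well apart, and the decrease was 22.4% (log2 fold change −0.37, SE 0.05, adjusted p = 0.000293 by edgeR). Mcm3 (chromosome 1, 20802974 to 20820278) stood at 593 and 568 CPM without auxin and 489 and 480 CPM with it, a decrease of 16.5% (adjusted p = 0.00247 by edgeR). Mcm5, the most abundant member, stood at 772 and 850 CPM without auxin and 652 and 702 CPM with it. Its replicates were wider apart than those of Mcm2, which stood at 719 and 721 CPM against 616 and 621 CPM. Mcm4 stood at 426 and 429 CPM against 397 and 392 CPM, so its groups did not overlap although edgeR's adjusted p was 0.0835 (log2 fold change −0.12, 95% interval −0.22 to −0.01). The Mcm6 call (log2 fold change −0.16, edgeR adjusted p = 0.0413) was lost with upper-quartile factors (0.0731), with library totals alone (0.384), without control replicate 1 (0.154) or 2 (0.109), and without auxin replicate 2 (0.271). The Mcm5 call (adjusted p = 0.00724) was lost with library totals alone (0.0821) and without control replicate 2 (0.0555), and the Mcm2 call (0.00480) with library totals alone (0.0826).

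The loading factor Cdt1 and its inhibitor geminin fell together. Cdt1 (chromosome 8, 122568015 to 122573128) stood at 304 and 307 CPM without auxin and 252 and 260 CPM with it (log2 fold change −0.26, SE 0.05, adjusted p = 0.00280 by edgeR). Gmnn, singled out after its values were seen, stood at 52.9 and 47.7 CPM against 39.4 and 35.0 CPM. It fell by 26.2% (log2 fold change −0.44, SE 0.09, adjusted p = 0.00397 by edgeR). Per kilobase of counted exon, Cdt1 was 3.85 and 4.31 times as high as Gmnn without auxin and 4.27 and 4.97 times with it, so the ratios of the groups overlapped. Cdc6, the ATPase that brings Cdt1 and the ring to the origin, stood at 99.7 and 94.9 CPM against 90.6 and 81.4 CPM and was not called (log2 fold change −0.18, 95% interval −0.33 to −0.03).

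Of the origin recognition complex, Orc2 and Orc3 fell, and Orc1, Orc4, Orc5 and Orc6 were not called. Differences between the subunits were not tested, and 5 of the 6 fold changes were negative. Orc3, also singled out after its values were seen, stood at 66.2 and 54.7 CPM without auxin and 46.7 and 42.0 CPM with it (log2 fold change −0.45, SE 0.10, adjusted p = 0.00585 by edgeR). Its 2 control libraries differed by more than those of most members, yet both lay above both auxin libraries. Orc2 stood at 129 and 123 CPM against 112 and 103 CPM, and its call (edgeR adjusted p = 0.0170) was lost with library totals alone (0.110), without control replicate 1 (0.112) and without auxin replicate 2 (0.120). Orc4 was the only member with a positive value, at 34.0 and 29.9 CPM without auxin and 41.1 and 32.3 CPM with it. These groups overlapped, and the log2 fold change of 0.19 had a 95% interval of −0.06 to 0.45. Without auxin replicate 2 Orc4 was called higher (log2 fold change 0.37, edgeR adjusted p = 0.0109). Orc1, an ATPase subunit, stood at 112 and 111 CPM against 102 and 102 CPM (edgeR adjusted p = 0.125). For Orc5 and Orc6 the log2 fold changes were −0.07 (95% interval −0.25 to 0.10) and −0.08 (−0.22 to 0.06).

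**Figure D3:**
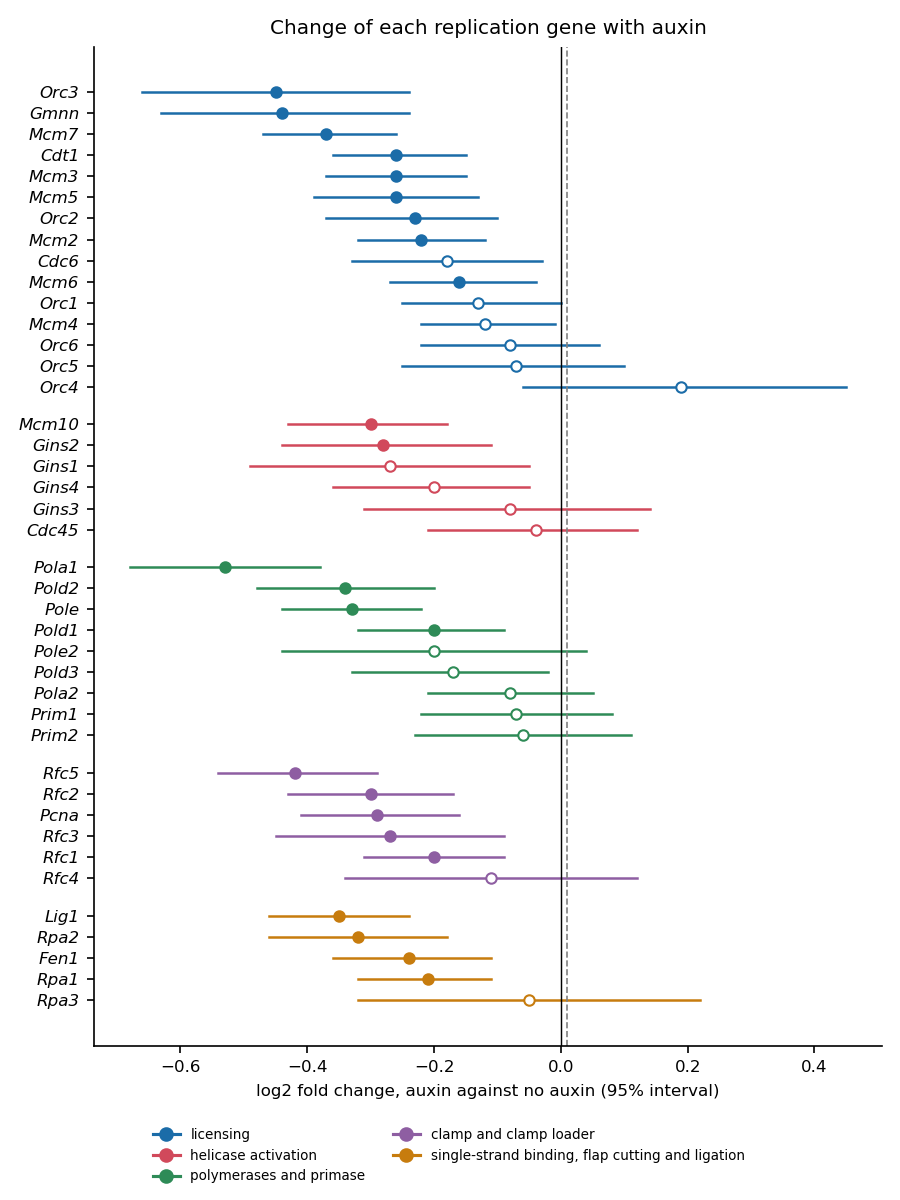
Log2 fold change of each replication gene with auxin (horizontal axis, points) with its 95% interval (lines), grouped and coloured by role and ordered within a role. Filled points passed edgeR's test over all genes, the dashed line is the median of all genes tested (0.01), and the values run from −0.53 for Pola1 to 0.19 for Orc4.

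Of the 6 genes for helicase activation, 2 fell and 4 were not called (median −0.24). Counts by role were not matched on level, and differences between roles were not tested. Over all roles 7 of 22 members at or under 100 CPM were called, against 17 of 19 above. Mcm10 (chromosome 2, 4989714 to 5012791) stood at 192 and 183 CPM without auxin and 158 and 146 CPM with it (log2 fold change −0.30, SE 0.06, adjusted p = 0.00295 by edgeR). Gins2 (chromosome 8, 120578633 to 120589304), a GINS subunit, stood at 66.5 and 74.8 CPM against 56.6 and 60.0 CPM. Its decrease of 17.4% (edgeR adjusted p = 0.0210) was no longer called with library totals alone (0.125) or without control replicate 2 (0.171). Gins1 and Gins4 had values of the same order (log2 fold changes −0.27 and −0.20) that did not pass the test with all libraries (edgeR adjusted p = 0.0664 and 0.0560). Both were called lower without auxin replicate 1 (0.0207 and 0.0110), which brought the count for this role to 4. Without control replicate 2 the count was 1. Gins3 stood at 22.8 and 21.4 CPM against 20.0 and 21.7 CPM, and its groups overlapped. Cdc45 stood at 65.6 and 59.1 CPM without auxin and 59.0 and 61.8 CPM with it, 1 of the 2 members with the largest p (log2 fold change −0.04, 95% interval −0.21 to 0.12). The other was Rpa3.

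Of the 9 polymerase and primase genes, 4 fell and 5 were not called (median −0.20). The catalytic subunits of all 3 replicative polymerases were among those that fell. Pola1 (chromosome X, 93304767 to 93632155), the catalytic subunit of polymerase alpha, stood at 125 and 117 CPM without auxin and 87.7 and 79.9 CPM with it. This was the largest decrease of any member (log2 fold change −0.53, SE 0.07, adjusted p = 0.000270 by edgeR). Pole (chromosome 5, 110286306 to 110337474), the catalytic subunit of the leading-strand polymerase epsilon, stood at 204 and 209 CPM against 165 and 163 CPM, a decrease of 20.4% (adjusted p = 0.000913 by edgeR). Pold1, the catalytic subunit of polymerase delta, stood at 188 and 184 CPM against 161 and 162 CPM, and its call (edgeR adjusted p = 0.0129) was lost with library totals alone (0.161) and without control replicate 1 (0.0928). Pold2 (chromosome 11, 5872180 to 5878292), an accessory subunit of polymerase delta, stood at 89.0 and 86.4 CPM against 67.2 and 71.0 CPM (log2 fold change −0.34, SE 0.07, adjusted p = 0.00281 by edgeR). The partners of Pola1 were not called: Pola2, the regulatory B subunit, had a log2 fold change of −0.08 (95% interval −0.21 to 0.05), the primase catalytic subunit Prim1 −0.07 (−0.22 to 0.08) and the large primase subunit Prim2 −0.06 (−0.23 to 0.11). The interval of Pola1, −0.68 to −0.38, overlapped none of these 3, and the difference between the genes was not tested. The catalytic Pold1 and the accessory Pole2 both had a log2 fold change of −0.20, with SEs of 0.05 and 0.11. Only Pold1 was called, so the calls do not set catalytic subunits apart from accessory ones. Pold3 (log2 fold change −0.17) and Pole2 (−0.20) were not called, and Pold3 was called lower without auxin replicate 1 (edgeR adjusted p = 0.0382).

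Of the clamp and clamp loader genes, 5 of 6 fell and Rfc4 was not called (median −0.28). Rfc5 (chromosome 5, 117378103 to 117389047), a small RFC subunit, stood at 185 and 180 CPM without auxin and 142 and 131 CPM with it (log2 fold change −0.42, SE 0.06, adjusted p = 0.000476 by edgeR). Rfc2 (chromosome 5, 134582690 to 134598328) stood at 109 and 108 CPM against 88.0 and 87.3 CPM, with replicates close together in both groups (adjusted p = 0.00320 by edgeR). Pcna, the clamp itself, stood at 308 and 305 CPM against 265 and 239 CPM, a decrease of 17.9% (edgeR adjusted p = 0.00365). A gene annotated as Pcna-ps2 was counted apart, and reads shared by such copies were not resolved here. Rfc1, the large subunit, and Rfc3 fell by 0.20 and 0.27 on the log2 scale (edgeR adjusted p = 0.0153 and 0.0272). Both calls were lost with library totals alone (0.165 and 0.131), without control replicate 1 (0.0774 and 0.194) and without auxin replicate 2 (0.0885 and 0.0775), which left 3 called genes of this role in each case. The Rfc1 call was also lost without control replicate 2 (0.0558), and the Rfc3 call with DESeq2 (0.102). Rfc4 stood at 32.7 and 29.4 CPM against 31.3 and 26.4 CPM, and its groups overlapped.

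Of the 5 genes for single-strand binding, flap cutting and ligation, 4 fell and Rpa3 was not called (median −0.24). Lig1 (chromosome 7, 13277283 to 13311433), the ligase of Okazaki fragments, stood at 409 and 418 CPM without auxin and 316 and 334 CPM with it. It fell by 21.4% (log2 fold change −0.35, SE 0.05, adjusted p = 0.000540 by edgeR). Rpa2 (chromosome 4, 132768332 to 132778752), the middle RPA subunit, stood at 114 and 107 CPM against 86.6 and 90.0 CPM (adjusted p = 0.00362 by edgeR). Rpa1, the large subunit, stood at 380 and 392 CPM against 336 and 329 CPM (adjusted p = 0.00651 by edgeR, and 0.0986 with library totals alone). Fen1, the flap nuclease, stood at 140 and 135 CPM against 119 and 115 CPM, and its call (edgeR adjusted p = 0.00940) was lost with library totals alone (0.0861) and without control replicate 1 (0.0742). Rpa3, the small subunit, stood at 26.6 and 20.5 CPM against 22.4 and 23.0 CPM, so both auxin values lay between the control values (log2 fold change −0.05, 95% interval −0.32 to 0.22).

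The transcripts of a complex were not equally abundant. Their order by group means was the same in both groups except at Mcm4 and Mcm7, Orc1 and Orc2, and Pole and Pole2. For Mcm4 and Mcm7 and for Orc1 and Orc2 every library showed the order of its group. Orc1 and Orc2 were almost equal in control replicate 2, where both round to 31.9 CPM per kilobase. Pole made up 48.7% and 53.6% of its pair without auxin and 47.5% and 50.3% with it, so these groups overlapped. Levels are compared here as CPM per kilobase of counted exon, which depends on how many exons the annotation merges. The 6 ring subunits summed to 1040 and 1060 CPM per kilobase without auxin and 895 and 898 with it. The highest of them, Mcm5, was 1.90 and 2.08 times the lowest without auxin and 2.03 and 2.12 times with it. Mcm7 made up 11.7% of that sum in both libraries without auxin and 10.5% and 10.8% with it, while Mcm4 made up 11.4% and 11.3% against 12.4% and 12.2%. Mcm4 was thus the lowest subunit without auxin and Mcm7 the lowest with it. In the origin recognition complex the range was wider: Orc6 had the highest level per kilobase and Orc4 the lowest, by 10.7 and 12.7 times without auxin and 8.34 and 11.2 times with it. In GINS, Gins4 made up 56.0% and 55.2% of the sum without auxin and 57.2% and 54.8% with it. Pola1 was the lowest of the 4 polymerase alpha and primase subunits, at 16.0% and 15.4% of their sum without auxin and 12.6% and 11.4% with it. Among RFC subunits Rfc2 was highest in every library and Rfc3 lowest. These shares are given without a test.

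**Figure D4:**
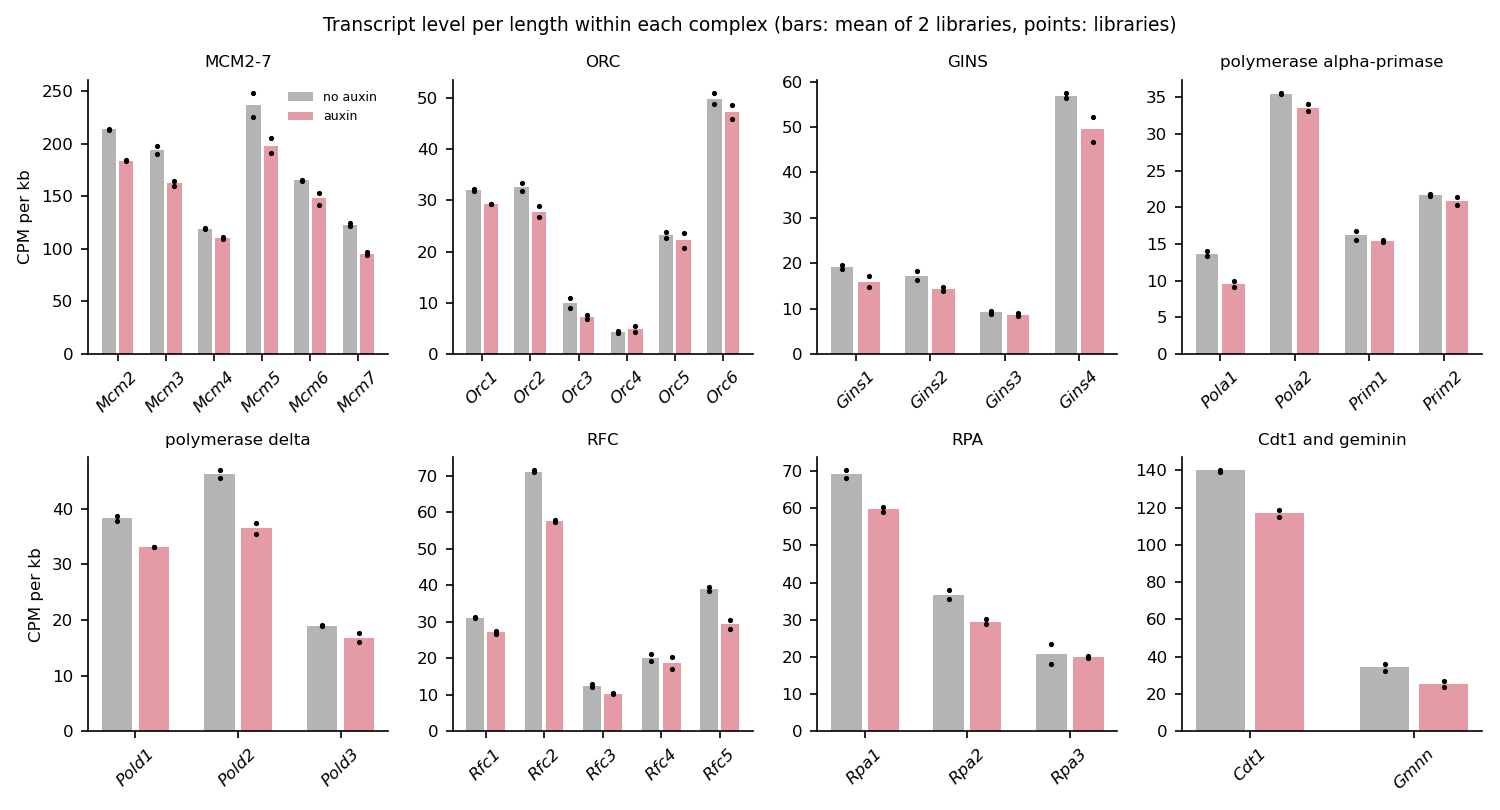
CPM per kilobase of counted exon (vertical axes, each from 0) for the subunits of 7 complexes and for Cdt1 with its inhibitor geminin, without auxin (grey) and with auxin (red). Bars are means of 2 libraries and points are the libraries. The order of the means is alike in both groups except at Mcm4 and Mcm7 and at Orc1 and Orc2.

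Among other genes of DNA replication, 47 of 104 on 5 lists fell, 2 rose and 55 were not called (median −0.17). Of all genes tested 14.5% were called lower and 13.0% higher. The share called lower was 37.6% over 100 and up to 300 CPM and 57.7% over 300 and up to 1000 CPM. The lists were not matched on level, so their counts are not set apart from that rise. Without control replicate 1 the count called lower was 29. Of 33 origin firing and fork factors 14 fell and none was called higher by edgeR or DESeq2 or at an unadjusted p under 0.05. They included Supt16, a subunit of the FACT histone chaperone (log2 fold change −0.41, edgeR adjusted p = 0.000289), the topoisomerase Top2a (−0.32, 0.000986) and the fork protection factor Timeless (−0.30, 0.00343). Of 14 genes that control licensing 7 fell, among them cyclin A2 (Ccna2, −0.35), the ubiquitin ligase subunit Skp2 (−0.37) and Ddb1 (−0.24), which is part of the ligase that destroys Cdt1 in S phase. None of the 14 was called higher by edgeR or DESeq2, and 1 was higher at an unadjusted p under 0.05. Of 21 genes of nucleotide supply 15 fell, among them the purine synthesis enzymes Gart (−0.39) and Atic (−0.37) and the dCTP pyrophosphatase Dctpp1 (−0.45). The exception was Rrm2b, a ribonucleotide reductase subunit known as a p53 target, which rose from 8.01 and 8.61 CPM to 17.0 and 16.8 CPM (log2 fold change 1.02, edgeR adjusted p = 0.000224).

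Of 17 genes of the E2F and Rb family 6 fell, 1 rose and 10 were not called. E2f8, an atypical repressor, fell by 0.69 on the log2 scale (edgeR adjusted p = 0.000195), E2f2 by 0.66 (0.00131) and E2f4 by 0.42 (0.000189). Rb1, which restrains E2F activators, rose from 23.7 and 23.9 CPM to 30.7 and 28.7 CPM (log2 fold change 0.32, adjusted p = 0.0253 by edgeR), and DESeq2 called no gene of this list higher. E2f1 stood at 70.9 and 68.6 CPM without auxin and 76.2 and 72.7 CPM with it and was not called. Of 19 replication checkpoint and fork repair genes 5 fell, among them Brca1 (−0.30) and Wee1 (−0.32), and none was called higher by edgeR or DESeq2 or at an unadjusted p under 0.05. Of 17 mitosis genes, Top2a again among them, 15 fell (median −0.29), and their summed level was 3930 and 3900 CPM without auxin and 3180 and 3210 CPM with it. Of 8 genes of replication-coupled histone supply 4 fell. The counts of these lists were not matched on level either. Of all genes tested 14.5% were called lower, and of those over 100 and up to 300 CPM 37.6% were, with a median of −0.11. Whether these lists move together with the members through the share of cells in each phase was not tested.

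**Figure D5:**
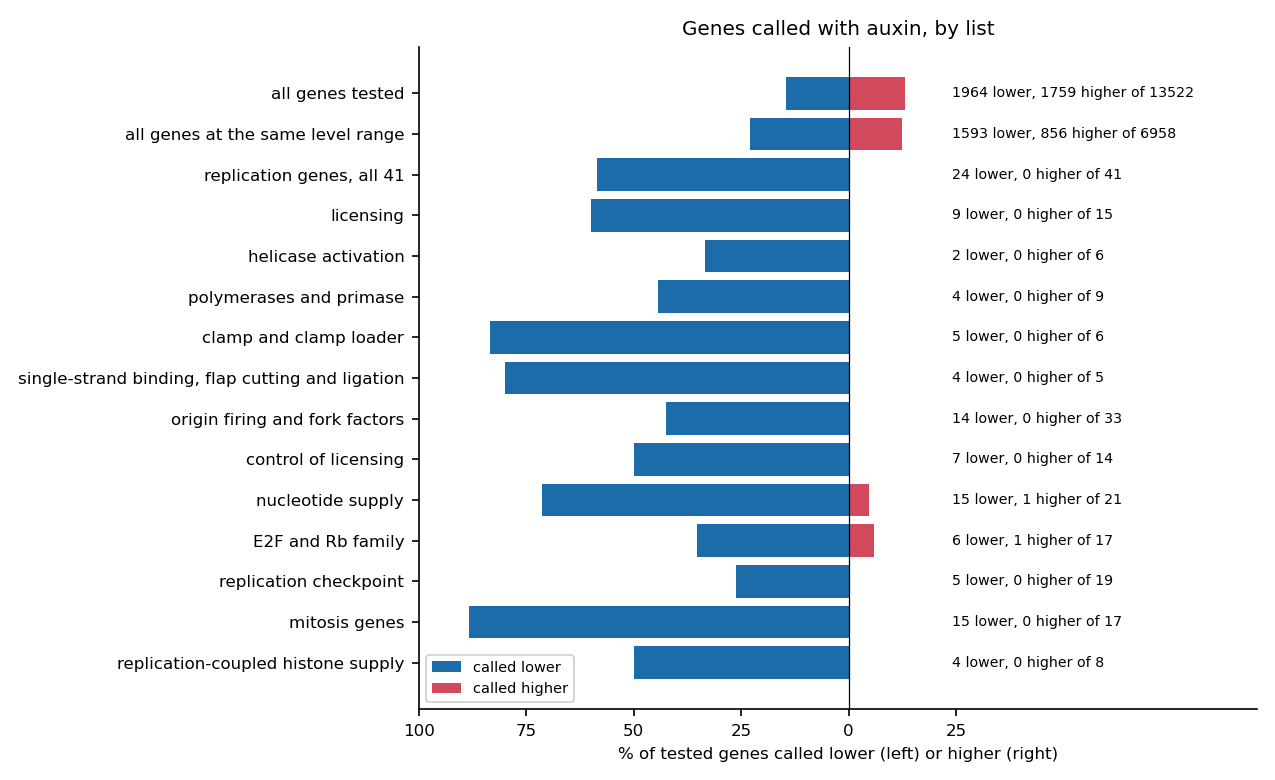
Percentage of tested genes called lower (blue, left) or higher (red, right) with auxin for all genes, for all genes in the level range of the members, for the 41 replication genes and their 5 roles, and for other lists. The replication genes have 24 of 41 called lower against 14.5% of all genes and 22.9% of genes in their level range, which are not matched on level within it. The mitosis genes have 15 of 17, and the roles and other lists were not matched on level.

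No deposited H3K27me3 peak lay at the 5′ end of a member in control cells, which does not show that the mark is absent there. Peaks came from 1 ChIP-seq sample without auxin at 6 h and 1 CUT&RUN control sample at 12 h. Within 1 kb on either side of the 5′ end, 0 of 41 members had a ChIP-seq peak and 0 of 41 a CUT&RUN peak, against 6.92% and 7.66% of 13501 tested genes. With 2 kb the members' counts were also 0, against 10.6% and 11.3% of tested genes. The tested genes were not matched to the members on expression level. The nearest ChIP-seq peak lay 5477 bases from the 5′ end of Rpa2, and the nearest CUT&RUN peak 7966 bases from that of Pola2. H3K27me3 in auxin-treated cells was not analysed here.

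Many members start close to a gene on the other strand. Of 41 members 14 had a head-to-head neighbour with a 5′ end within 1000 bases, against 14.0% of tested genes. Of the 12 tested neighbours 1 was called higher and 11 were not called. Of all genes tested 13.0% were called higher and 14.5% lower, so the neighbours' counts are near those shares. Of the 12 members facing them 6 fell, and differences within pairs were not tested. Orc3 faces Rars2, a mitochondrial arginyl-tRNA synthetase gene, at 13 bases, and Rars2 had a log2 fold change of −0.09 (SE 0.10) against −0.45 for Orc3. Pole faces Pxmp2 at 120 bases (log2 fold change −0.25, SE 0.14, adjusted p = 0.206 by edgeR). Rpa1 faces Smyd4 at 109 bases, and Smyd4 rose by 0.33 on the log2 scale (adjusted p = 0.0238 by edgeR). Mcm4 faces Prkdc, the DNA-dependent protein kinase gene, at 466 bases, and neither passed the test. Several neighbours were low in abundance, with standard errors up to 0.48, so a change of the size seen in the members was not detectable for them. Reads were counted by strand, which keeps genes apart where their exons overlap on opposite strands. Such a case is Gins2, where 67.3% of the counted length overlaps exons of Gse1 on the other strand.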

How the data were processed

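The genes, roles and lists were chosen with earlier results of these data known. Raw fragment counts per gene were deposited by the authors. Per the file headers, featureCounts 1.6.3 assigned fragments to exons of an mm10 annotation by strand. STAR 2.6.1d is named in the submitters' processing notes. Depth was 13353446 to 16046290 counts per library, and the number of libraries, 2 per group, limits precision. edgeR 4.0.16 in R 4.3.3 was run on the deposited counts with TMM factors, its default filter on low counts and no replicate block. The quasi-likelihood F test was two-sided, with Benjamini-Hochberg adjustment over 13522 genes and a threshold of 0.05. Standard errors were obtained by dividing the size of the log2 fold change by the root of F, and 95% intervals use the test's degrees of freedom. CPM are counts over TMM-scaled library sizes. On simulated data the test found 86% of the 100 genes given a log2 change of 1 and 60% of the 100 given 0.5, with 10 false calls in 13322. That run used the filter of at least 1 read, and far fewer genes changed in it than were called in the data. Only Pola1 among the members changed by more than 0.5, so these rates do not describe the members' calls. All members are reported. Full values were set for the 2 or 3 smallest p per role, any member called higher and the 2 largest p; other lists give up to 3 calls and each exception, and 1 gene that this rule names is not reported here. Bands of level, head-to-head neighbours, CCAAT and TTTGAA were chosen after the values were seen. Setd8 in the table stands for Kmt5a.

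Broad peaks were deposited by the authors with a score, a fold enrichment ratio and −log10 values of p and q for every peak, from MACS2 2.1.1 per the submitters' processing notes. The sources used here give neither the control library nor the call threshold. Only peak positions and, in 1 alternative, −log10 q were used. Alternatives were RLE, upper-quartile and no scaling factors, at least 1 read in any library, DESeq2 1.42.0, the replicate block, and leaving out each library, and for peaks a 2 kb window, a −log10 q of at least 2 and 200 bases of overlap.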

Additional observations from a re-analysis of the deposited data

How the results depend on the processing

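No member changed direction while called, and 14 of the 24 members called lower were lower under all 10 alternatives: Orc3, Cdt1, Gmnn, Mcm3, Mcm7, Mcm10, Pola1, Pold2, Pole, Pcna, Rfc2, Rfc5, Rpa2 and Lig1. These are the 14 called with library totals alone, so that 1 alternative fixes the number. The matching share over all genes called lower is not given here, so the count is not a trait of the members. With library totals alone, 988 genes were called lower and 2735 higher, against 1964 and 1759, and 14 members were lower (5 for licensing, 1 for helicase activation, 3 for the polymerases and primase, 3 for the clamp, 2 for ligation and its partners), with 23 of the other replication genes lower and 4 higher. With at least 1 read in any library, 4 helicase activation genes were lower and 4 other replication genes higher. DESeq2 called 881 genes and 1 other replication gene higher.

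Replicate numbers do not mark a stated pairing. The deviations of replicate 1 correlated at 0.23 across genes, over 2 pairs only. The replicate block called 3177 genes lower and 2972 higher, 31 members lower, 1 licensing gene higher (Orc4, adjusted p = 0.0210), 4 helicase activation genes lower and 5 other replication genes higher.

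Leaving out each library in turn gave 1257 (without control replicate 1) to 1914 genes lower and 1225 to 1705 higher, 18 to 28 members lower, 0 to 1 member and 0 to 1 licensing gene higher (Orc4, without auxin replicate 2), 1 to 4 helicase activation and 3 to 5 clamp genes lower, and 29 to 50 other replication genes lower with 1 to 4 higher. Counting noise alone was exceeded between replicates (chi-square over degrees of freedom 3.86 without auxin and 11.1 with it). For members at or under 100 CPM, 7 of 22 were called against 17 of 19 above. The median log2 fold changes were −0.18 and −0.26, and the median standard errors 0.077 and 0.052. Over all genes the share called lower also rose with level, from 10.0% at 20 to 50 CPM to 57.7% at 300 to 1000 CPM.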
